A study of Mus musculus with 6 samples.

Results

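The transcripts that code for the machinery carrying new proteins from the endoplasmic reticulum (ER) to the Golgi were examined in mouse oocytes with and without LSM14B. A gene was counted as a member when its symbol in the deposited expression table belonged to the Sec11, Sec16, Sec22, Sec23, Sec24, Sec31, Sec61, Sec62, Sec63, Cop, Arcn1, Trappc, Tmed, Spcs or Ssr1 to Ssr4 symbols, so the rule reads symbols alone. This gave 64 members of 24255 genes. The samples were fully-grown oocytes (FGOs) at the germinal vesicle (GV) stage, that is, immature oocytes that have finished growth and rest in the prophase of meiosis I. They came from C57BL/6J females that were wild type (WT) or homozygous for Lsm14b tm1a(KOMP)Mbp, a knockout-first allele carrying a reporter tag (Lsm14b-KO). The allele is carried in every cell of the animal, not in oocytes alone, and no age is given in the labels. All females received 5 IU of PMSG, a gonadotropin, 46 h before collection, and there were 3 libraries of 20 oocytes for each genotype, 6 in all. Nothing in the labels says that the libraries came from separate animals, so the p-values measure the spread between these libraries, which may be technical.

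Proteins that will be secreted, put into a membrane or laid down in the zona pellucida enter the ER through the Sec61 channel, lose their signal sequence to the signal peptidase, and leave in vesicles coated with COPII. The p24 proteins and SNAREs travel in these vesicles, the TRAPP complexes tether them and activate the GTPase RAB1, and vesicles coated with COPI bring escaped ER proteins and the machinery itself back. LSM14B binds maternal mRNAs, which a growing oocyte makes and stores for use after transcription has stopped.

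Expression was deposited as FPKM, the number of sequenced fragments scaled to the length of the transcript and the depth of the library. The 6398 genes that reached 1 FPKM in any library were compared between genotypes on the log2(FPKM + 1) scale with limma, and a gene was called when its Benjamini-Hochberg adjusted p over all 6398 genes was under 0.05. A difference on this scale is written below as a log2 difference, Lsm14b-KO minus WT, with its standard error (SE), and it understates the change of genes at a few FPKM. The targeted gene, Lsm14b, had 2.77, 3.98 and 1.72 FPKM in WT while its value in Lsm14b-KO was 0, 0 and 0.102 FPKM (limma adjusted p = 0.0038), so all 6 libraries carried the level their label implies. Lsm14b-KO replicates 2 and 3 had FPKM sums of 564671 and 676656, against 1029728 to 1244182 in the other 4 libraries, and their estimated depth relative to WT replicate 1 was 1.95 and 2.17, against 1 to 1.33. Lsm14b-KO replicate 1 lay closest to the WT mean of the 3 Lsm14b-KO libraries for 57.0% of all tested genes and for 25 of the 43 tested members. Of 12 cumulus and granulosa cell markers 5 (Amh, Foxl2, Inhba, Ptx3 and Tnfaip6) were listed at 0 in every library, and the summed level of the 12 was 9.89 to 13.6 FPKM in WT and 6.23 to 10.4 FPKM in Lsm14b-KO. Their part in the results was not tested. All 6 red blood cell markers in the table were at 0, and all 10 oocyte markers were present.

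Most of the machinery was present at a low level in the mRNA, and a few small subunits made up most of it. In WT oocytes 5 members had a mean of at least 100 FPKM, 17 of at least 10 FPKM and 31 of at least 1 FPKM. The 6 most abundant, Spcs1, Sec11a, Trappc2, Trappc1, Sec61b and Sec22a, held 84.4% to 87.4% of the summed FPKM of all 64 members in the WT libraries, and 89.0%, 71.5% and 81.8% of it in the Lsm14b-KO libraries. The 64 members together took 0.237%, 0.251% and 0.229% of the summed FPKM of all genes in the WT libraries and 0.324%, 0.246% and 0.279% in the Lsm14b-KO libraries. These shares overlapped between genotypes (exact permutation test, two-sided, p = 0.20, where 3 libraries against 3 cannot give less than 0.10). Sec31b, Tmed6 and Tmed11 were listed at 0 in every library. A further 18 members stayed under 1 FPKM throughout, the highest of them at 0.857 FPKM, and 43 were tested. Of the 43, 7 passed the minimum only through Lsm14b-KO libraries (Copb2, Cope, Sec16a, Sec24b, Sec61a1, Spcs3 and Tmed4) and 2 only through WT libraries (Trappc3 and Trappc6a).

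**Figure D1:**
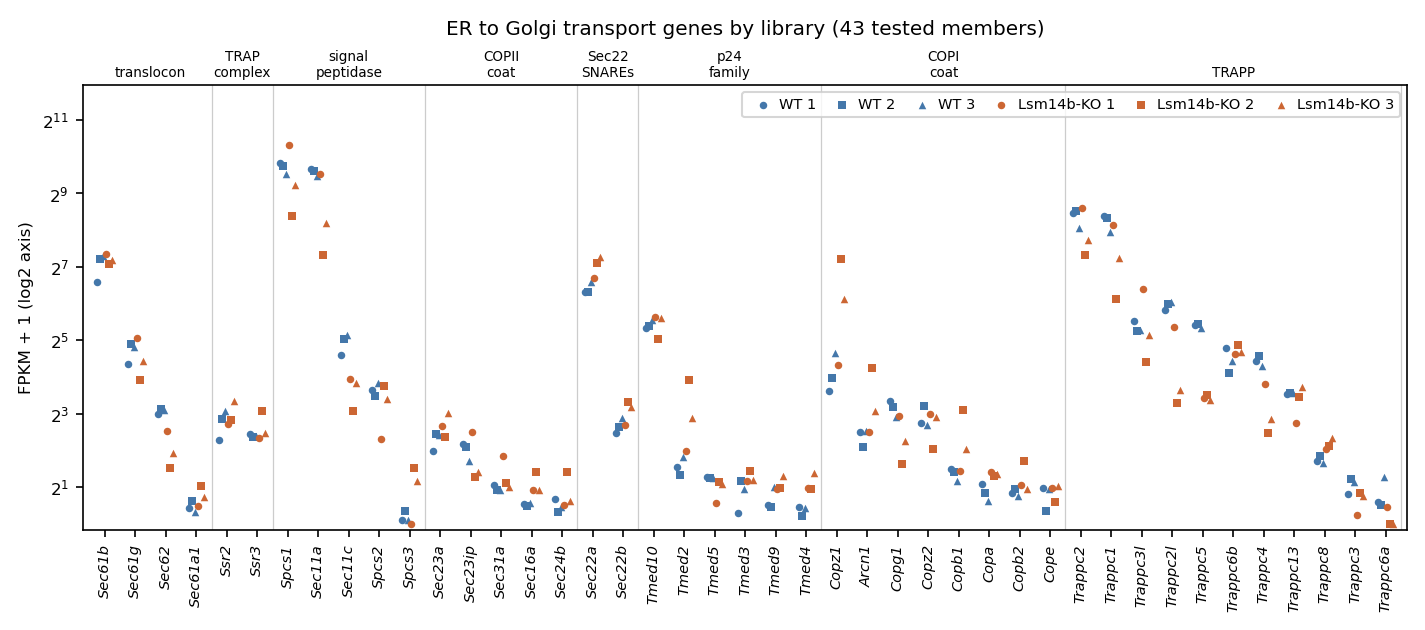
Level of each of the 43 tested members in each of the 6 libraries, as FPKM + 1 on a log2 axis, by family and in order of the mean within a family. Blue symbols are WT and orange symbols Lsm14b-KO, with circles for replicate 1, squares for replicate 2 and triangles for replicate 3. Spcs1, Sec11a, Trappc2 and Trappc1 stand far above most others, and the 3 orange symbols of many genes are spread wider than the 3 blue ones.

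Few of the tested members differed between genotypes. The values are of bulk RNA, in which fewer oocytes holding a transcript and less of it in each oocyte cannot be told apart. Tmed4 was higher in Lsm14b-KO (2.33% of 43), against 6.38% of all tested genes. Another 5 (11.6% of 43) were lower, against 15.2% of all tested genes: Trappc5, Trappc4, Trappc2l, Sec62 and Sec11c. Both shares lay below those of the whole table, so the machinery as a whole was not called more often than other genes. The 3 WT and the 3 Lsm14b-KO values did not overlap for 15 of the 43 members, 34.9%, against 45.0% of all tested genes. Of the 34 members that reached the minimum in both genotypes, 17 had a log2 difference above 0 and 17 below. The 7 that reached it only in Lsm14b-KO were all above 0 and the 2 that reached it only in WT below, a direction that the minimum favours. The level of FPKM depends on how a library is scaled. Scaling to TPM moved the median log2 difference of all tested genes from -0.08 to 0.40. It turned the share of calls that were higher in Lsm14b-KO from 29.5% to 63.2%. That share was 42.4% after quantile normalization and 45.1% after a correction for transcript length and GC content.

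**Figure D2:**
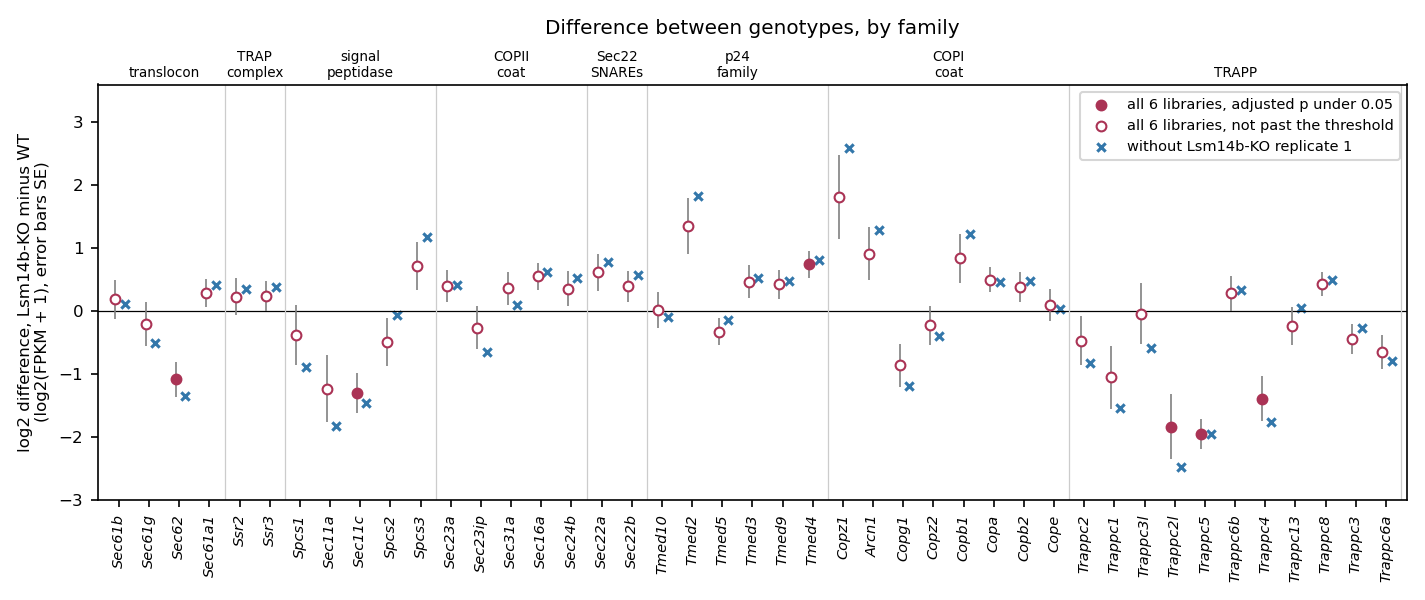
Log2 difference of each tested member between Lsm14b-KO and WT, by family. Circles are the fit on 6 libraries with the SE as the error bar, filled where the adjusted p was under 0.05, and blue crosses are the fit without Lsm14b-KO replicate 1. The 6 filled circles are Sec62, Sec11c, Tmed4, Trappc2l, Trappc5 and Trappc4, and the crosses of Copz1, Tmed2, Sec11a and Trappc2l lie farther from 0 than their circles.

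The calls depended on single libraries. Without Lsm14b-KO replicate 1, 7 members were higher and 11 lower of 43, which was again below the share of all genes in that fit (18.3% higher and 28.7% lower of 6280). The 11 lower were Copg1, Sec11a, Sec11c, Sec23ip, Sec62, Spcs1, Trappc1, Trappc2, Trappc2l, Trappc4 and Trappc5, and the 7 higher were Arcn1, Copb1, Copz1, Sec22a, Spcs3, Tmed2 and Tmed4. When any 1 of the other 5 libraries was left out, limma called 0 members higher (1 to 4 had an unadjusted p under 0.05 and a positive difference), and 1 was lower, namely Trappc5 (2, with Sec11c, where replicate 2 of Lsm14b-KO was left out). For 7 members replicates 2 and 3 of Lsm14b-KO lay above all WT values and replicate 1 did not, and for another 7 they lay below all WT values and replicate 1 did not.

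Of the 4 tested genes of the channel through which proteins enter the ER, 1 was called. Sec61b, which codes for a small subunit of the channel, was the most abundant of this family at 95.4, 146.6 and 155.4 FPKM in WT and 163.1, 135.6 and 144.4 FPKM in Lsm14b-KO. The groups overlapped (log2 difference 0.18 ± 0.31 SE). Sec61g had a log2 difference of -0.21 ± 0.35, and the pore-forming Sec61a1 stayed at 0.264 to 1.07 FPKM over the 6 libraries. Both Sec61b and Sec61g have 3 near-identical copies elsewhere in the genome, so their reads may be split. Sec62, whose product helps proteins enter after their synthesis is complete, fell: it stood at 7.003, 7.81 and 7.60 FPKM in WT and at 4.76, 1.89 and 2.82 FPKM in Lsm14b-KO. The 3 Lsm14b-KO libraries were thus lower than each WT library, and the log2 difference was -1.08 ± 0.28 (limma adjusted p = 0.0313). The call was lost in 8 of 12 alternatives, with an adjusted p of 0.00129 to 0.129 over them. Its partner Sec63 was at 0.161 to 0.392 FPKM over the 6 libraries, and Sec61a2, the second gene for the pore, was listed at 0 in WT and at 0.179, 0.184 and 0.165 FPKM in Lsm14b-KO. Neither reached the minimum. Of the 4 TRAP genes, whose products sit beside the channel, Ssr2 and Ssr3 were tested and overlapped between groups, with log2 differences of 0.23 ± 0.29 and 0.24 ± 0.24.

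The signal peptidase, which cuts off signal sequences, held the most abundant members. Spcs1, coding for an accessory subunit, was listed at 909.3, 853.8 and 739.8 FPKM in WT and at 1286, 335.6 and 595.7 FPKM in Lsm14b-KO. Replicate 1 of Lsm14b-KO was the highest of the 6 libraries and replicate 2 the lowest, and the log2 difference was -0.39 ± 0.48. Sec11a, which codes for a catalytic subunit, was listed at 816.9, 780.4 and 705.4 FPKM in WT and 740.4, 158.1 and 293.0 FPKM in Lsm14b-KO. Only the last 2 of these were below every WT library, and the gene did not pass the threshold (log2 difference -1.23 ± 0.53, limma adjusted p = 0.123). Its paralog Sec11c, the alternative catalytic subunit, was listed at 23.3, 31.7 and 34.5 FPKM in WT and 14.5, 7.51 and 13.3 FPKM in Lsm14b-KO. These groups did not overlap, and Sec11c fell by 1.30 ± 0.32 on the log2 scale (limma adjusted p = 0.0272). The call was lost in 8 of 12 alternatives, among them the correction for length and GC content (log2 difference -0.63, limma adjusted p = 0.115). The accessory subunit gene Spcs2 was not called (log2 difference -0.50 ± 0.38, with 1 near-identical copy). Spcs3 was listed at 0.0787, 0.276 and 0.0764 FPKM in WT and at 0, 1.90 and 1.27 FPKM in Lsm14b-KO.

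The COPII genes among the members, with Sec16, Sec23, Sec24 and Sec31 symbols, were scarce. Among the 5 tested, limma called 0 (1 at an unadjusted p under 0.05). Of these Sec23a, a gene of the inner coat, was the most abundant at 3.00, 4.47 and 4.38 FPKM in WT and 5.41, 4.19 and 7.13 FPKM in Lsm14b-KO. A coat gene outside the symbol rule, Sec13, had a higher mean, at 3.66, 5.93 and 7.03 FPKM in WT and 5.09, 12.25 and 8.88 FPKM in Lsm14b-KO. Its groups overlapped, and it was not called (log2 difference 0.54 ± 0.35, limma adjusted p = 0.269). Sec16a, which codes for the scaffold of ER exit sites, was the only tested COPII member whose groups did not overlap. It was at 0.473, 0.416 and 0.490 FPKM in WT and 0.916, 1.69 and 0.889 FPKM in Lsm14b-KO (log2 difference 0.55 ± 0.21, limma adjusted p = 0.0981). Sec16a reached the minimum only in replicate 2 of Lsm14b-KO, so it was tested only because it was high there. Sec31a, of the outer coat, and Sec24b, of the inner coat, overlapped between groups, with log2 differences of 0.36 ± 0.26 and 0.35 ± 0.28. Sec23ip, whose product binds Sec23, overlapped too (-0.27 ± 0.34), and its transcript shares a near-identical stretch with 8 other genes. The other 6 members of the family were under the minimum. Sec16b shows how little lies behind such values: its FPKM multiplied by the relative depth was 0.123 in each of the 3 WT libraries, 0.0614 in Lsm14b-KO replicate 1 and 0 in the other 2, the pattern of a few fragments per library.

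The motif TGACGT was found before the RefSeq start site of 5 of 11 COPII genes and 3 of 8 COPI genes, and of 0 genes of the other 6 families. In all, 12 motifs were looked for on both strands in the 250 bases before RefSeq start sites (GRCm38.p6), for 52 members with 56 such stretches, and this observation was picked from that search after its result was seen. TGACGT, the core of elements bound by factors of the CREB and ATF6 type, was in 8 of the 56 stretches (14.3%), against 6.47% of all 32851 and 9.94% of the 6045 of tested genes. The longer TGACGTGG, which contains TGACGT, was in 3 (Copb1, Sec16b and Sec24d), against 0.563% of all stretches and 0.612% of those of tested genes. The 30 bases around the match are given because they show the 8 genes side by side, 5′ to 3′ on the strand of the gene, with the motif in capitals (ACGTCA is TGACGT on the other strand).
Copb1 (chr7:114254689-114254718, minus strand): ccgcccccttccACGTCAgccaaggacttg
Cope (chr8:70302545-70302574, plus strand): ggcggaggaatgTGACGTCAcggagagacc
Copz1 (chr15:103272858-103272887, plus strand): agactcagggccaatcagcggTGACGTcgc
Sec16a (chr2:26445217-26445246, minus strand): gggcggggcgcgcTGACGTctccttcggac
Sec16b (chr1:157506740-157506769, plus strand): gttctgtgtggcTGACGTggcacggcagtt
Sec23b (chr2:144556199-144556228, plus strand): ctagagcatggcgccgcgaaaTGACGTttc
Sec24a (chr11:51757054-51757083, minus strand): accaacaggctaACGTCAaaattaatctta
Sec24d (chr3:123267458-123267487, plus strand): cgcccgggcgccTGACGTggcactagcaac
The match began 9 to 44 bases before the RefSeq start in Copz1, Sec23b, Sec16a, Copb1, Sec24d and Sec16b, and 210 and 237 bases before it in Cope and Sec24a. In 6 of the 8 genes, all but Sec16a and Sec23b, GENCODE places exons over part or all of the 250 bases. The match shown for these 6 lies inside the gene as GENCODE places it, so it is before the start by RefSeq alone. Their start site is thus uncertain, and the Sec24a stretch lies wholly within GENCODE exons. Of the 8 genes 4 were tested, Copb1, Cope, Copz1 and Sec16a, and none was called. The other motifs found in members were CCAAT (21 stretches, 37.5%, against 33.8% of all), CACGTG (8, 14.3%, against 6.02%), TAATTG (7, 12.5%, against 7.17%), CCGGAAGT (6, 10.7%, against 2.88%) and GATTGGCT (4, 7.14%, against 3.62%). In the same order, their shares among the stretches of tested genes were 38.1%, 8.52%, 5.54%, 6.14% and 6.04%. The 5 longer motifs, which were the ER stress, CLEAR, YY1, NRF1 and ZNF143 elements, were found in 0 members. They were rare everywhere, in 0.113% to 0.782% of all stretches and 0.232% to 1.59% of those of tested genes. In only 56 stretches, 0 matches is not far from these shares. A match is a description of these letters and not a binding site.

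The p24 family, cargo receptors that cycle between the ER and Golgi, held the member called higher. Tmed4 was listed at 0.372, 0.162 and 0.359 FPKM in WT and at 0.974, 0.954 and 1.61 FPKM in Lsm14b-KO. All Lsm14b-KO values exceeded all WT values, and the log2 difference was 0.74 ± 0.21 (limma adjusted p = 0.0426), at a level that reached 1 FPKM in only 1 library, of Lsm14b-KO, so the gene was tested only because it was high there. Without the filter it was not called (limma adjusted p = 0.075). The call was lost in 6 of the 11 alternatives that could test it, since without replicate 3 of Lsm14b-KO the gene was under the minimum. Tmed10, the most abundant of the family, was at 39.2, 40.9 and 45.7 FPKM in WT and 49.0, 31.7 and 48.1 FPKM in Lsm14b-KO, with a log2 difference of 0.01 ± 0.29 and 1 near-identical copy. Tmed2, its partner in the p24 complex, was at 1.92, 1.55 and 2.57 FPKM in WT and 2.99, 14.0 and 6.43 FPKM in Lsm14b-KO. Each Lsm14b-KO value lay above each WT value, though the 3 were spread widely (log2 difference 1.36 ± 0.44, limma adjusted p = 0.0612), and Tmed2 has 2 near-identical copies. Tmed3, Tmed5 and Tmed9 had log2 differences of 0.47 ± 0.26, -0.33 ± 0.22 and 0.42 ± 0.23 and were not called.

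The Sec22 genes code for proteins of ER to Golgi vesicles, of which SEC22B acts as a SNARE. Sec22a was the more abundant by far, at 78.5, 79.3 and 95.9 FPKM in WT and 103.7, 137.9 and 152.4 FPKM in Lsm14b-KO. The groups did not overlap, and the gene did not pass the threshold (log2 difference 0.62 ± 0.29, limma adjusted p = 0.152). It did pass after TPM scaling (1.30, limma adjusted p = 0.0408). Sec22b was at 4.57, 5.27 and 6.46 FPKM in WT and 5.50, 8.95 and 8.06 FPKM in Lsm14b-KO, and its groups overlapped. Sec22c stayed at 0.043 to 0.140 FPKM.

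**Figure D3:**
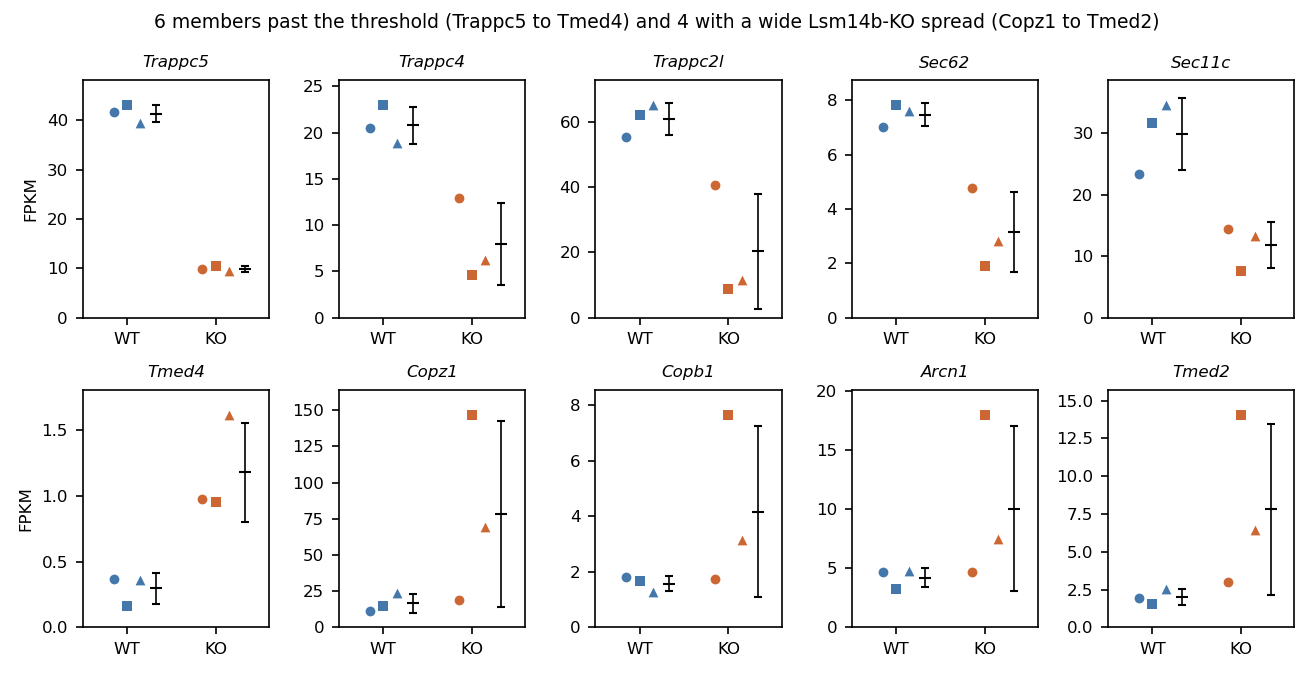
FPKM of the 6 called members (Trappc5 to Tmed4) and of 4 members that were not called (Copz1 to Tmed2) in each library, with the mean and SD of the 3 libraries beside them. Blue is WT and orange Lsm14b-KO, with circles, squares and triangles for replicates 1, 2 and 3. The Trappc5 values form tight groups, of 39.4 to 42.98 FPKM in WT and 9.37 to 10.5 FPKM in Lsm14b-KO, and for Copz1, Copb1, Arcn1 and Tmed2 replicate 2 of Lsm14b-KO is the highest and replicate 1 the lowest of its group.

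The TRAPP complexes, which tether vesicles and act as exchange factors for RAB1, held 3 of the 5 members that fell, 3 of its 11 tested genes (27.3%, against 15.2% of all tested genes). After TPM scaling, quantile normalization or without the filter only 1 of them was called, Trappc5. Trappc5, a gene of the core of the complex, was at 41.6, 42.98 and 39.4 FPKM in WT and 9.86, 10.5 and 9.37 FPKM in Lsm14b-KO. The mean was 41.3 ± 1.80 FPKM (SD, n = 3) in WT and 9.91 ± 0.561 FPKM in Lsm14b-KO, so the gene stood 4.17-fold lower, with a spread within each group far below the gap. The log2 difference was -1.96 ± 0.23 (limma adjusted p = 0.00228). Trappc5 was the only member that stayed past the threshold in all 12 alternatives, with an adjusted p of 0.000178 to 0.0247 and a log2 difference of -2.00 to -1.92 when single libraries were left out. After TPM scaling the log2 difference was -1.30 (limma adjusted p = 0.0247). Trappc4, also of the core, was at 20.5, 22.9 and 18.9 FPKM in WT and 12.96, 4.61 and 6.25 FPKM in Lsm14b-KO. The groups did not overlap, with replicate 1 of Lsm14b-KO nearest to WT (log2 difference -1.39 ± 0.36, limma adjusted p = 0.0304). Trappc2l, a paralog of the core gene Trappc2, was at 55.4, 62.2 and 65.0 FPKM in WT and 40.6, 8.79 and 11.5 FPKM in Lsm14b-KO. These groups did not overlap either (log2 difference -1.84 ± 0.52, limma adjusted p = 0.0407). The calls of Trappc4 and Trappc2l were each lost in 8 of 12 alternatives, with adjusted p of 0.000412 to 0.122 and 9.03e-05 to 0.149.

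The other TRAPP genes were not called. Trappc2 was the most abundant, at 350.1, 368.2 and 267.3 FPKM in WT and 386.9, 158.5 and 210.7 FPKM in Lsm14b-KO, with overlapping groups (log2 difference -0.47 ± 0.39) and 1 near-identical copy. Trappc1 was at 332.4, 319.9 and 248.0 FPKM in WT and 284.0, 68.3 and 149.5 FPKM in Lsm14b-KO, again with replicate 1 among the WT values (log2 difference -1.05 ± 0.50, limma adjusted p = 0.154). The members specific to the larger TRAPP complexes were mostly scarce. Trappc8 was at 2.29, 2.60 and 2.18 FPKM in WT and 3.11, 3.38 and 4.07 FPKM in Lsm14b-KO, groups that did not overlap and were not called (0.43 ± 0.19, limma adjusted p = 0.136). Trappc13 was at 10.6, 10.8 and 10.8 FPKM in WT and 5.69, 10.1 and 12.3 FPKM in Lsm14b-KO. Trappc9, Trappc10, Trappc11 and Trappc12 stayed under 1 FPKM.

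In GENCODE vM21 (GRCm38, the assembly also called mm10) Trappc5 lies at chr8:3676299-3681255 on the plus strand, Trappc4 at chr9:44403698-44407600 on the minus strand, Trappc2l at chr8:122611640-122616660 on the plus strand, and Sec62 at chr3:30792875-30821263 on the plus strand. Each is a protein-coding gene. Trappc5, Trappc4, Sec62, Sec11c and Tmed4 each overlap 1 gene on the other strand and Trappc2l overlaps 1 on its own strand. The sources do not state that counting used the strand, so reads of such partners cannot be told apart. No copy of these 6 genes was found at 95% identity or more. The study names CCUCUC as a hexamer of the mRNAs that LSM14B binds. It is written CCTCTC here, and it was present in the representative GENCODE transcript (the longest with a RefSeq match) of 20 of the 43 tested members (46.5%), against 54.1% of 6318 tested genes, counted over the whole transcript, at 0.357 sites per kb against 0.375. Of the 6 called members Trappc5 and Sec62 held 1 or more sites. Their first sites are shown with 10 bases on either side and the hexamer in capitals, at bases 95 to 100 of the Trappc5 transcript and 1113 to 1118 of the Sec62 transcript.
Trappc5: ccttgcggccCCTCTCggtcaccgca
Sec62: caccctcttcCCTCTCtggccagcag

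The COPI coat, which carries proteins back from the Golgi to the ER, had 0 genes called by limma among its 8 tested members (3 at an unadjusted p under 0.05), and several of them varied widely among the Lsm14b-KO libraries. Copz1, which codes for the zeta subunit, was the most abundant, at 11.4, 14.8 and 24.01 FPKM in WT and 19.3, 146.6 and 69.2 FPKM in Lsm14b-KO. Replicate 1 lay within the WT range and replicates 2 and 3 above it (log2 difference 1.81 ± 0.67, limma adjusted p = 0.0869). Copb1, for the beta subunit, was at 1.81, 1.66 and 1.28 FPKM in WT and 1.73, 7.63 and 3.14 FPKM in Lsm14b-KO, and Arcn1, for the delta subunit, at 4.65, 3.25 and 4.75 FPKM in WT and 4.69, 17.9 and 7.48 FPKM in Lsm14b-KO. Both had the same order as Copz1 among the Lsm14b-KO libraries, replicate 2 above 3 above 1, and neither was called (0.84 ± 0.39 and 0.91 ± 0.42, both with a limma adjusted p of 0.146). These 3 genes were singled out after their values were seen. Copg1, for the gamma subunit of the same complex, had the reverse order, at 9.22, 8.15 and 6.56 FPKM in WT and 6.75, 2.13 and 3.82 FPKM in Lsm14b-KO (-0.87 ± 0.34, limma adjusted p = 0.102). Copa was at 0.557 to 1.15 FPKM in WT and 1.47 to 1.69 FPKM in Lsm14b-KO. Copb2 was at 0.700 to 0.948 FPKM in WT and 0.954 to 2.27 FPKM in Lsm14b-KO, separate by a narrow margin. Copa and Copb2 were above all WT values in all 3 Lsm14b-KO libraries and were not called (limma adjusted p = 0.105 and 0.262). Copb2 and Cope passed the minimum only through Lsm14b-KO libraries, which favours a difference above 0. After TPM scaling Copa was called (0.90, limma adjusted p = 0.041). Cope had a log2 difference of 0.10 ± 0.25, and Copg2 was at 0.0921 to 0.373 FPKM.

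Several subunits exist as paralog pairs, and the ratio of the FPKM of 2 genes in 1 library does not depend on how the library was scaled. The ratio of FPKM + 1, which was tested and plotted, does depend on it, most for low genes such as Trappc3. In all 6 pairs with both genes tested, the same paralog was the higher one in every library. Sec22a exceeded Sec22b 14.8- to 18.9-fold in every library. Trappc3l exceeded Trappc3 28.1- to 58.8-fold in WT and 436.2-, 25.6- and 49.2-fold in Lsm14b-KO, the last 3 resting on Trappc3 values of 0.191 to 0.787 FPKM. TAATTG, the element of the oocyte factor NOBOX, was found before the start of 7 members: Sec16a, Sec16b, Sec23ip, Sec24a, Tmed1, Tmed10 and Trappc3l. Of these only Trappc3l was picked to be shown, and a link of the motif to its level was not tested. In Trappc3l the motif, in capitals here, lies 196 bases before the RefSeq start and within chr10:34037389-34037418 (plus strand).
Trappc3l: catggctgtttcTAATTGcagtcattacct
Sec11a exceeded Sec11c 20.4- to 35.1-fold in WT and 51.1-, 21.1- and 21.97-fold in Lsm14b-KO. Copz1 exceeded Copz2 1.98-, 1.80- and 4.40-fold in WT and 2.74-, 46.9- and 10.6-fold in Lsm14b-KO, and these groups overlapped. Trappc6b exceeded Trappc6a 52.87-, 37.75- and 14.31-fold in WT and 63.41-fold in replicate 1 of Lsm14b-KO. Trappc6a was listed at 0 in replicates 2 and 3 of Lsm14b-KO, so no ratio of FPKM exists there. As ratios of FPKM + 1, only those of Trappc2 to Trappc2l differed without overlap. The ratio of FPKM of this pair was 6.31, 5.92 and 4.11 in WT and 9.53, 18.03 and 18.3 in Lsm14b-KO. On the log2(FPKM + 1) scale the shift was 1.37 (exact permutation test, two-sided, p = 0.10, the smallest that 3 against 3 can give, and 0.30 adjusted over the 6 pairs).

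**Figure D4:**
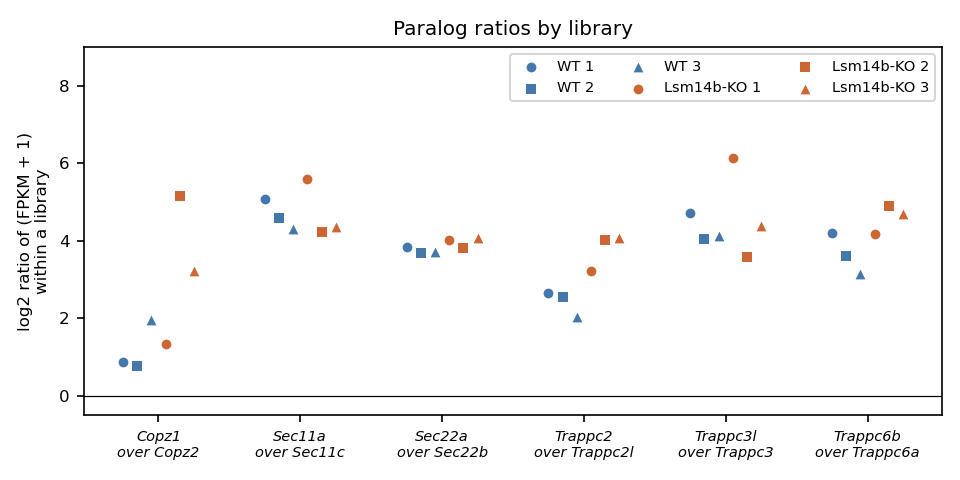
Log2 ratio of (FPKM + 1) between paralogs within each library for the 6 pairs, with blue for WT, orange for Lsm14b-KO, and circles, squares and triangles for replicates 1, 2 and 3. All points lie above 0, and only for Trappc2 over Trappc2l do the orange points all lie above the blue ones.

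Around the 64 members lies a second set of genes: the GTPases, SNAREs, tethers and receptors that work with the coats. Of 56 such partner symbols 55 were in the table and 35 were tested. Among these 3 were higher and 6 lower, 8.57% and 17.1%, against 6.38% and 15.2% of all tested genes. The largest fall was that of Sar1b, which codes for the GTPase that starts COPII assembly: it was at 509.2, 491.9 and 474.4 FPKM in WT and 66.6, 21.4 and 36.8 FPKM in Lsm14b-KO. The mean went from 491.9 ± 17.4 FPKM (SD, n = 3) to 41.6 ± 22.96 FPKM, 11.8-fold lower, with no overlap (log2 difference -3.68 ± 0.42, limma adjusted p = 0.00207), and the call held in all 12 alternatives, with a log2 difference of -2.996 after TPM scaling. Its paralog Sar1a was at 0.996 to 2.92 FPKM over the 6 libraries and was not called. In GENCODE vM21 Sar1b and the COPII member Sec24a lie head to head on chromosome 11 with 52 bases between them, and Sec24a was at 0.422, 0.405 and 0.262 FPKM in WT and 0.290, 0.158 and 0.124 FPKM in Lsm14b-KO, too low to be tested. Bet1, a SNARE of the same vesicles, was at 742.1, 598.3 and 643.2 FPKM in WT and 356.1, 103.1 and 134.5 FPKM in Lsm14b-KO (-1.94 ± 0.47, limma adjusted p = 0.0257). Uso1, for the tether p115, was at 10.6, 12.9 and 11.9 FPKM in WT and 4.88, 3.22 and 3.69 FPKM in Lsm14b-KO (-1.39 ± 0.23, limma adjusted p = 0.00709). Neither gene overlapped between groups, and with single libraries left out Uso1 stayed past the threshold in 6 of 6 cases and Bet1 in 2. After TPM scaling Uso1 was not called (-0.80, limma adjusted p = 0.0519) and Bet1 had a log2 difference of -1.25, and without the filter Bet1 was not called (limma adjusted p = 0.0659). The other 3 that fell, Stx18, Gosr1 and Gosr2, are SNARE genes at 1.89 to 4.32 FPKM in WT and 0.323 to 2.09 FPKM in Lsm14b-KO.

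Of the partner genes 3 rose. Tfg, whose product organizes COPII vesicles at exit sites, was at 3.78, 1.86 and 2.70 FPKM in WT and 7.88, 12.5 and 12.4 FPKM in Lsm14b-KO, without overlap (1.66 ± 0.28, limma adjusted p = 0.00779). Nsf, for the ATPase that takes SNARE complexes apart, was at 1.504, 1.88 and 2.30 FPKM in WT and 3.45, 8.05 and 5.64 FPKM in Lsm14b-KO (1.16 ± 0.29, limma adjusted p = 0.0275). Rab1, the GTPase that TRAPP activates, was at 6.32, 7.29 and 7.46 FPKM in WT and 19.1, 10.2 and 16.1 FPKM in Lsm14b-KO (0.97 ± 0.28, limma adjusted p = 0.0438). All 3 were above every WT value in each Lsm14b-KO library. Leaving out single libraries kept Tfg past the threshold in 5 of 6 cases, Rab1 in 2 and Nsf in 1. Without the filter Nsf and Rab1 were not called (limma adjusted p = 0.0713 and 0.0851).

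Upstream of the vesicles, genes for ER entry other than the members were mostly not called. Of 41 symbols for the signal recognition particle (SRP), the tail-anchor pathway, the ER membrane complex and the oligosaccharyltransferase, 26 were tested, 2 were higher (7.69%, against 6.38%) and 4 lower (15.4%, against 15.2%). Srp19, an SRP subunit, was at 81.9, 93.2 and 70.0 FPKM in WT and 36.0, 11.3 and 18.4 FPKM in Lsm14b-KO (-1.99 ± 0.42, limma adjusted p = 0.0163). Srp14, another SRP subunit, was at 2290, 2034 and 1854 FPKM in WT and 1345, 323.7 and 509.1 FPKM in Lsm14b-KO (-1.76 ± 0.50, limma adjusted p = 0.0426). Both fell without overlap, with replicate 1 of Lsm14b-KO nearest to WT. Emc8, of the ER membrane complex, was at 11.1, 9.46 and 9.75 FPKM in WT and at 2.72, 3.43 and 3.26 FPKM in Lsm14b-KO, tight and separate groups (-1.42 ± 0.21, limma adjusted p = 0.00474). The other gene that fell was Emc6. The 2 that rose were the catalytic subunits of the oligosaccharyltransferase, which attaches sugar chains to new proteins: Stt3b was at 10.5, 9.80 and 7.71 FPKM in WT and 13.2, 36.2 and 26.8 FPKM in Lsm14b-KO, and Stt3a was at 0.516, 1.35 and 1.30 FPKM in WT and 2.56, 4.08 and 3.37 FPKM in Lsm14b-KO. Neither overlapped between groups (1.25 ± 0.38 and 1.09 ± 0.25, limma adjusted p = 0.0479 and 0.0219). With single libraries left out, Emc8 stayed past the threshold in 6 of 6 cases, Srp19 in 2, and Srp14, Stt3a and Stt3b in 1, the case without replicate 1 of Lsm14b-KO. After TPM scaling Emc8 was not called (-0.84, limma adjusted p = 0.0774). Without the filter the calls of Srp14, Stt3a and Stt3b were lost (limma adjusted p = 0.102, 0.0595 and 0.105).

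ER chaperones and genes of the unfolded protein response were looked at because they act on the cargo of this route. Of 30 symbols 20 were tested, 3 were higher (15%, against 6.38%) and 1 lower (5%, against 15.2%). Their median log2 difference was 0.54, against -0.08 for all tested genes, and it stayed above that of all tested genes under TPM scaling (by 0.65), quantile normalization (by 0.56) and the length and GC correction (by 0.48). Without the filter the gap was 0.17, against 0.62 in the fit given here. Hspa5, for the chaperone BiP, rose from 10.3, 8.82 and 13.3 FPKM in WT to 28.6, 31.4 and 28.4 FPKM in Lsm14b-KO. The Lsm14b-KO values were tight and above all WT values (1.38 ± 0.26, limma adjusted p = 0.0108). Hsp90b1, for the chaperone GRP94, rose from 1.41, 0.881 and 1.56 FPKM to 3.17, 10.3 and 6.15 FPKM (1.62 ± 0.36, limma adjusted p = 0.0196). Sil1, for an exchange factor of BiP, rose from 4.39, 3.37 and 2.38 FPKM to 8.55, 6.31 and 5.71 FPKM (0.85 ± 0.26, limma adjusted p = 0.0496). Manf, for a protein made under ER stress in many cells, fell from 36.7, 40.2 and 35.8 FPKM to 9.47, 9.88 and 13.7 FPKM (-1.70 ± 0.26, limma adjusted p = 0.0053). None of the 4 overlapped between groups, and with single libraries left out the call held in 6 of 6 cases for Manf, 3 for Hspa5, 2 for Hsp90b1 and 1 for Sil1. After TPM scaling Manf was not called (-1.04, limma adjusted p = 0.0526), and without the filter Hsp90b1 and Sil1 were not (limma adjusted p = 0.0579 and 0.105). Ddit3, for the stress factor CHOP, was abundant in both genotypes with overlapping groups (log2 difference -0.21 ± 0.46), and Xbp1, Atf6 and Ern1 stayed under 1 FPKM.

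**Figure D5:**
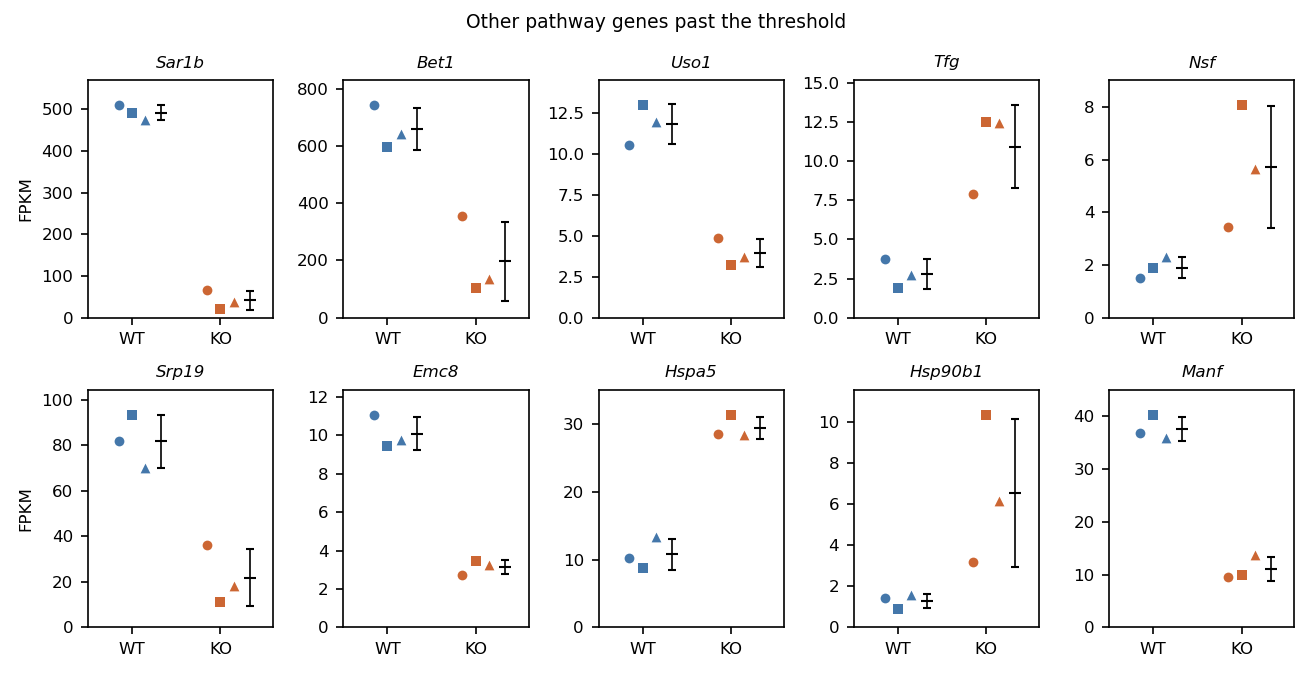
FPKM of 10 other pathway genes past the threshold in each library, with the mean and SD of the 3 libraries of each genotype beside them. Blue is WT and orange Lsm14b-KO, with circles, squares and triangles for replicates 1, 2 and 3. The groups overlap in none of the 10, and Sar1b shows the widest gap, from 474.4 FPKM or more in WT to 66.6 FPKM or less in Lsm14b-KO.

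Short transcripts tended to lie lower in Lsm14b-KO than long ones, among the members and in the whole table. Across the 43 tested members the Spearman correlation of transcript length with the log2 difference was 0.40, and across 6318 tested genes it was 0.36. These are correlations across genes of the same 6 libraries, and genes are not independent replicates. The median log2 difference was -0.21 for the 21 members of 564 to 2003 nt and 0.37 for the 22 of 2074 to 8737 nt. Depth, FPKM sums and the order of the Lsm14b-KO libraries moved together with genotype in these data, and their part in the differences above was not tested beyond the alternatives given.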

How the data were processed

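RNA-Seq values of 6 libraries were analysed, 3 WT and 3 Lsm14b-KO, grouped by title and genotype label. Per the labels, the Smart-seq2 procedure was applied to 20 oocytes per library, followed by paired reads of 150 bp. The labels name 2 library kits and no strandedness. After trimming, the authors used TopHat2 (2.0.13) for alignment to mm10 and computed the deposited FPKM values with Cufflinks (2.2.1). The annotation and the role of Cuffnorm are not given in the sources used here. The table also holds 3 columns of the authors' own comparison (fold change, p and q), which were not used. A spreadsheet had turned 27 symbols into dates.

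The members and gene lists were chosen with earlier results of these data known. FPKM + 1 was log2 transformed and compared with limma 3.58.1 (R 4.3.3, lmFit and eBayes with trend, genotype only), for genes reaching 1 FPKM in any library, with Benjamini-Hochberg adjustment over all of them. The fits were tested on simulated data. No count model was fitted, since the table holds no counts and depth is known only as a ratio between libraries, estimated from the steps between low values. Paralog ratios were compared by exact permutation tests (scipy 1.17.1). Places, transcript lengths and overlaps came from GENCODE vM21, upstream sequences from RefSeq (GRCm38.p6), and copies from blastn 2.17.0 at 95% identity over at least 200 nt.

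The text names Lsm14b, every called member, the most abundant member and the tested paralogs of each family, members at 0, and up to 3 rises and 3 falls per list. Other genes were named after their values were seen. Alternatives were a pseudocount of 0.1, no filter, TPM scaling, quantile normalization, a length and GC correction, a replicate block, and leaving out each library.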

Additional observations from a re-analysis of the deposited data

How the results depend on the processing

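Lsm14b, the 6 called members and the 15 called pathway genes from Tfg to Manf whose values were followed kept their direction in every alternative that gave them a value, which was not run for Stx18, Gosr1, Gosr2, Emc6 or the other called genes. Over all tested genes 1383 were called, 720 without the filter, and 321 to 2952 when single libraries were left out. Of the members 1 was higher: 3 were after TPM scaling (Copa, Sec22a and Tmed4), 2 after quantile normalization (Sec22a and Tmed4), and 0 to 7 with single libraries left out. Of the members 5 were lower: 1 was without the filter, after TPM scaling and after quantile normalization, in each case Trappc5, and 1 to 11 were with single libraries left out. Partner genes past the threshold went from 9 to 4 without the filter and to 2 to 20 with single libraries left out, ER entry genes from 6 to 3 and to 1 to 14. ER chaperone and unfolded protein response genes went from 4 to 2 without the filter, to 7 after TPM scaling, to 7 after the length and GC correction, and to 1 to 12. The highest counts came without Lsm14b-KO replicate 1. The cause was not tested.

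Some log2 differences of members that were not called turned sign. TPM scaling gave 0.36 for Copz2, 0.21 for Sec23ip, 0.46 for Sec61g, 0.31 for Spcs1, 0.15 for Spcs2, 0.081 for Tmed5, 0.40 for Trappc13, 0.22 for Trappc2 and 0.63 for Trappc3l. Quantile normalization gave 0.13 for Sec61g, 0.35 for Spcs1, 0.030 for Trappc13, 0.28 for Trappc2 and 0.40 for Trappc3l. The length and GC correction gave 0.32 for Copz2, 0.49 for Sec61g, 0.17 for Spcs1, 0.033 for Trappc2 and 0.67 for Trappc3l. With single libraries left out the range was -0.11 to 0.24 for Cope, -0.40 to 0.078 for Copz2, -0.035 to 0.31 for Sec61b, -0.50 to 0.071 for Sec61g, -0.89 to 0.074 for Spcs1, -0.10 to 0.21 for Tmed10, -0.45 to 0.046 for Trappc13 and -0.58 to 0.41 for Trappc3l. Of 701 comparisons of a named gene with an alternative, 554 kept direction and side of the threshold, 99 lost the call, 16 gained one and 32 turned sign.

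The WT and Lsm14b-KO libraries share replicate numbers. Their deviations from the group means correlated by 0.19, -0.13 and 0.02 for numbers 1, 2 and 3. Between libraries of different numbers the correlation ran from -0.275 to 0.306. With 3 libraries per group these values cannot decide whether the numbers pair the libraries. With the replicate block 1244 genes were called, and 1 member was higher (Copz1 in place of Tmed4) and 5 lower.

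The table gives no counts, so the precision of each value is unknown, and members under 1 FPKM rest on few fragments. An exact 0 does not show that a transcript was absent.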

Other observations

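Among the 21 members that were not tested, Sec61a2, Trappc12, Sec24d, Sec22c and Sec16b had groups that did not overlap, at levels of a few fragments. The share of such genes among all untested genes was not computed, so these values are a description only. Sec61a2, the second gene for the pore of the ER channel, was listed at 0 in the 3 WT libraries and at 0.179, 0.184 and 0.165 FPKM in Lsm14b-KO, and it was called higher when genes were not filtered on their level. Trappc12, of the larger TRAPP complexes, was at 0.348, 0.305 and 0.422 FPKM in WT and 0.852, 0.536 and 0.481 FPKM in Lsm14b-KO. Sec24d, one of the 4 genes for the cargo-binding coat subunit, was at 0.419, 0.489 and 0.407 FPKM in WT and 0.368, 0.394 and 0.289 FPKM in Lsm14b-KO. Sec22c was at 0.140, 0.123 and 0.136 FPKM in WT and 0.0703, 0.120 and 0.0430 FPKM in Lsm14b-KO. Multiplied by the relative depth, its values were 0.140 in each WT library and 0.0934, 0.233 and 0.0934 in Lsm14b-KO. On that scale the groups overlapped, with replicate 2 of Lsm14b-KO the highest.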
